A study of Mus musculus with 12 samples.

Results

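The subject here is the set of genes whose expression in the medial prefrontal cortex (mPFC) separated BTBR from C57 mice whatever the mice had been given. Of 17283 genes in the deposited table, 13586 reached an FPKM (fragments per kilobase of transcript, scaled to library size) of at least 1 in 3 or more libraries and were tested. A gene is called held when it had an adjusted p under 0.05 for strain, in a model with treatment as covariate, and all 6 BTBR libraries lay above, or all 6 below, the 6 C57 libraries. In all, 1282 of the 13586 genes were held, and BTBR was higher for 658 and lower for 624. The 12 libraries form 4 groups of 3: C57 given the DMSO vehicle, C57 given the plant saponin astragaloside IV (ASIV), BTBR given vehicle and BTBR given ASIV. Injections were intraperitoneal and went on for 7 days, and every library carries the genotype label WT. The study's question was the effect of ASIV on neurotransmission in BTBR mice, for which the strain comparison is the baseline. The labels used here give neither the C57 substrain nor age or sex. They number the libraries as parallel samples without saying that each is a separate animal, so p-values measure the spread between these samples, which may be technical.

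BTBR is an inbred mouse strain that lacks the corpus callosum and shows low sociability and repetitive grooming, and it is widely used as a model of autism. Inbred strains differ at many loci, and such differences are present in every animal of the strain, with or without a drug. Among the loci that can differ are processed pseudogenes, copies of mRNAs written back into the genome that are often nearly identical to the gene they came from. The mouse reference genome was made from C57BL/6J.

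Libraries held 16166512 to 18660125 fragments, as read from the spacing of the low FPKM values. Replicates of a group correlated at 0.971 to 0.992 (Pearson's r across genes, log2 scale). The BTBR vehicle libraries stood apart in mitochondrial RNA: mRNAs of the mitochondrial genome made up 0.342 to 0.640% of fragments there, against 3.03 to 3.23% in BTBR ASIV, 2.96 to 4.72% in C57 ASIV and 4.48 to 4.83% in C57 vehicle. The strain difference is therefore also given under ASIV, as a contrast whose means hold no BTBR vehicle sample, although its error is pooled over all 12 libraries. In bulk tissue, fewer cells of a type and less RNA per cell cannot be told apart.

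Strain was called for 4234 genes across both treatments, 31.2% of those tested, of which 2152 were higher and 2082 lower in BTBR (limma, Benjamini-Hochberg adjusted p), and the count was 2684 and 2763 without C57 vehicle replicates 1 and 2. All 6 libraries of a strain lay beyond the 6 of the other for 1302 genes, or 9.58%, and 1282 of these (9.44%) were also called. Held genes higher in BTBR made up 4.84% and those lower 4.59% of the genes tested; the balance turned with scaling, to 613 higher and 690 lower with libraries rescaled without the mitochondrial genome, against 680 and 552 after rescaling to TPM. Most differences were small: the median absolute log2 difference on the log2(FPKM + 1) scale was 0.51, 614 held genes differed by less than 0.5, and 117 by at least 1 (69 higher, 48 lower). In 33 held genes the nearest libraries of the strains were at least 2-fold apart in FPKM, and in 64 all libraries of a strain lay under an FPKM of 1. These sizes describe genes chosen on the same contrast and test nothing. The number of held genes was 2007 without BTBR ASIV replicate 2, and 1267 of the 1282 were among them.

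Vehicle and ASIV libraries, which share no sample, gave different numbers of strain calls. Under vehicle 5858 genes (43.1%) were called, 3026 higher and 2832 lower in BTBR. This balance also turned with scaling, to 2581 higher and 3262 lower with libraries rescaled without the mitochondrial genome. After rescaling to TPM it was 3342 and 2437. Under ASIV 344 genes (2.53%) were called, 178 higher and 166 lower. Calls under both numbered 267, of which 264 had the same direction and 3 the opposite. The 264 make up 4.51% of the vehicle calls and 76.7% of the ASIV calls. Of all vehicle calls, 75.4% had the same sign under ASIV, and the log2 differences correlated at r = 0.521 across the genes, which share libraries and are not independent replicates. Among the held genes, 1217 were called under vehicle, 262 under ASIV and 251 under both. The median log2 difference of held genes higher in BTBR was 0.66 under vehicle and 0.35 under ASIV, and that of held genes lower in BTBR was -0.61 and -0.38. Of the 117 held genes that differed by at least 1, 116 were called under vehicle and 78 under ASIV. The number of ASIV calls rests on few libraries: it was 99 without C57 ASIV replicate 2, 108 without C57 ASIV replicate 3, 128 without BTBR ASIV replicate 3 and 162 without BTBR ASIV replicate 1, but 644 and 576 without BTBR vehicle replicates 2 and 3, whose spread is pooled into the test. A fit on only the 6 ASIV libraries called 311 genes, 233 of them among the 344.

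**Figure D1:**
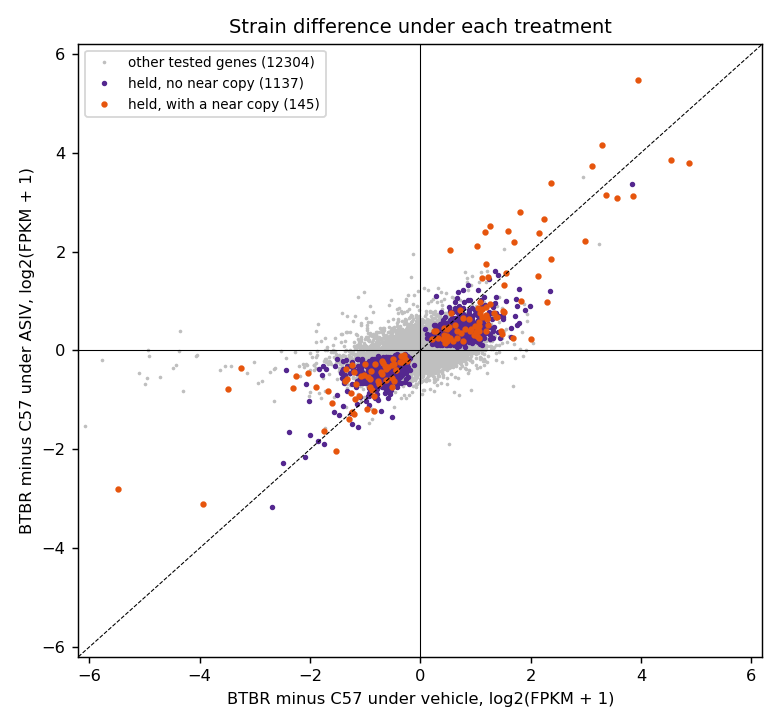
Strain difference (BTBR minus C57, log2(FPKM + 1)) of each tested gene under vehicle (x axis) and under ASIV (y axis), with held genes marked. Of the 1282 held genes, 1063 differed more under vehicle than under ASIV and 219 more under ASIV.

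A change of the strain difference with treatment (interaction) was called for 1939 genes, 14.3% of those tested, 939 with a higher and 1000 with a lower BTBR minus C57 difference under ASIV; with libraries rescaled without the mitochondrial genome these were 1152 and 802. The count fell to 1248, 1166 and 1254 without C57 vehicle replicates 1, 2 and 3 and to 1218 without C57 ASIV replicate 1. Among held genes it was called for 229, and in 221 of these the strain difference was larger under vehicle. In the other 8 it was larger under ASIV: the pseudogenes Gm6472, Gm6969, Gm14150, Gm3226 and Gm5900, which have near copies, and Nudt19, Folh1 and 9030407P20Rik, which have none. For 1053 held genes the interaction was not called, which does not show that their difference was equal under both treatments.

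Held genes with the largest differences were often members of a gene and copy pair. A gene was counted as having a near copy when another gene of the table, not overlapping it, shared at least 200 transcript bases at 95% identity or more. Near copies existed for 8.59% of all tested genes, for 11.3% of held genes, and for 48.7% (57 of 117) of held genes that differed by at least 1. Pseudogenes made up 4.42% of tested genes, 50.7% (35 of 69) of the held genes higher in BTBR by at least 1 and 16.7% (8 of 48) of those lower. Among protein-coding genes alone, 5.25% of those tested and 30.2% (19 of 63) of the held ones that differed by at least 1 had a near copy. A gene could pass the FPKM filter through 1 strain alone. In 64 held genes, 28 higher and 36 lower in BTBR, all libraries of a strain lay under an FPKM of 1. These genes were tested only because they were high in the other strain. The shares among large differences therefore depend on the filter and test nothing. How fragments that match several places were counted is not given in the sources used here, so the values of both members of such pairs are uncertain.

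Stretches of 4 such pairs are shown because a read that lies within them has only their few differing bases to tell the members apart. A read that reaches beyond the shared part has other bases too. Of the longest Ndufs5 transcript, 319 of 680 bases aligned to BC002163. Each is 120 bases of coding sequence of the lower gene, aligned to its copy and chosen for the most differences, from GENCODE M21 transcripts (GRCm38), 5′ to 3′; capitals mark the bases that differ within the pair. Psenen (chr7:30561863-30563627, minus strand) and its processed pseudogene Gm12396 (chr4:40775259-40775564, minus strand) were identical over 303 aligned coding bases, so a single line serves both. Psmb5 (chr14:54614119-54618022, minus strand) and Gm3375 (chr7:3181093-3181888, plus strand) differed at 8 of 792. Ndufs5 (chr4:123712710-123718202, minus strand) and BC002163 (chr16:42955631-42955949, plus strand) differed at 2 of 318, and Pcna (chr2:132249162-132253314, minus strand) and Pcna-ps2 (chr19:9283380-9284160, plus strand) at 6 of 781.
Psenen and Gm12396: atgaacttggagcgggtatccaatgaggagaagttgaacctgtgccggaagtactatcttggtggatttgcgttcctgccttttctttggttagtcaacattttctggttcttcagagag
Psmb5: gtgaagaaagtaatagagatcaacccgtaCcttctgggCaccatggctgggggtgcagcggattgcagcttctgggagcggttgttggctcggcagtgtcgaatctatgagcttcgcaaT
Gm3375: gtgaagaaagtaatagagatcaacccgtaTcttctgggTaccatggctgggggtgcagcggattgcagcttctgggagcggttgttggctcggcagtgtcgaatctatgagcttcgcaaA
Ndufs5: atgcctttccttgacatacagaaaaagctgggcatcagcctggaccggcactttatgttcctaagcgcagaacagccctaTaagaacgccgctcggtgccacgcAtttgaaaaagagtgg
BC002163: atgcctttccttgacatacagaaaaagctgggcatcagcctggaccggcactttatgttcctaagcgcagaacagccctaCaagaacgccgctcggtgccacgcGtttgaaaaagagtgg
Pcna: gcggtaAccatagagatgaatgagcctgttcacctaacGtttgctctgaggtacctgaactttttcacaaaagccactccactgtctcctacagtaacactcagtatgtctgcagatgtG
Pcna-ps2: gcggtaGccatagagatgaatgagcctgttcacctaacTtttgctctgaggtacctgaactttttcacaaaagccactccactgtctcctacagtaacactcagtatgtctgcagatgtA
These stretches carry 0 to 3 differences in 120 bases in the reference. The BTBR sequence at these places was not analysed here.

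Psenen encodes PEN-2, a subunit of the gamma-secretase complex. Its level was 25.5, 26.9 and 26.4 FPKM in C57 vehicle, 25.8, 26.9 and 26.5 in C57 ASIV, 9.97, 7.71 and 6.501 in BTBR vehicle and 13.9, 10.9 and 11.8 in BTBR ASIV. Gm12396, whose aligned bases are the same, was at 1.05, 0.994 and 4.62 FPKM in C57 vehicle, 1.77, 2.38 and 2.53 in C57 ASIV, 77.3, 87.8 and 80.3 in BTBR vehicle and 38.3, 42.2 and 49.8 in BTBR ASIV. The gene was lower and the copy higher in every BTBR library than in any C57 library, with log2 differences of -1.33 ± 0.12 (limma adjusted p = 1.5e-05) and 4.32 ± 0.26 (limma adjusted p = 6.35e-07). Summed as FPKM times exon length in kb (FPM, library-scaled fragments), the pair was at 34.3 ± 0.903 in C57 and 32.1 ± 3.96 in BTBR (SD, n = 6), and the strains overlapped. Under ASIV alone they did not, at 33.5 to 35.0 FPM in C57 and 26.8 to 30.3 in BTBR. The copy held 1.97% of the pair's fragments in C57 and 58.6% in BTBR.

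Psmb5, a catalytic subunit of the proteasome, and Ndufs5, a subunit of respiratory complex I, had the same pattern. Gm3375 rose from a median of 1.97 (1.23 to 2.67) FPKM in C57 (range in parentheses, here and below) to 52.8 (26.9 to 90.0) in BTBR, while Psmb5 fell from 79.3 (76.0 to 102) to 52.0 (43.2 to 66.3). BC002163 rose from 4.66 (2.98 to 6.36) to 71.7 (48.7 to 126), while Ndufs5 fell from 70.7 (61.2 to 83.6) to 31.4 (15.7 to 45.6). Members of each pair were separated between the strains in opposite directions, and their sums overlapped over all 12 libraries. Under vehicle alone the sums did not overlap. That of Psmb5 and Gm3375 was then 69.8 to 76.0 FPM in C57 and 89.5 to 120 in BTBR. For Ndufs5 and BC002163 it was 59.1 to 65.2 in C57 and 45.0 to 54.8 in BTBR. Values over both treatments follow. The sum of Psmb5 and Gm3375 was 75.8 ± 8.80 FPM in C57 and 93.0 ± 17.2 in BTBR, and that of Ndufs5 and BC002163 was 62.6 ± 6.504 and 51.6 ± 5.19 (SD, n = 6). Pcna, the sliding clamp of DNA replication, was at 14.9 (13.9 to 19.3) FPKM in C57 and 8.19 (6.47 to 12.5) in BTBR, and Pcna-ps2 at 0.272 (0.223 to 0.561) and 6.78 (3.35 to 8.69). The share of Pcna-ps2 in the pair's fragments was 0.673% in C57 and 18.8% in BTBR.

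Of 650 pairs of near copies with both members tested, 18 were held in opposite directions, 15 in the same direction, 116 had 1 held member and 501 had none. In 16 of the 18 the member higher in BTBR was a pseudogene, and in 0 the lower member. Summed fragments overlapped between the strains in 8 of the 18 and were lower in BTBR without overlap in 10. The median log2 ratio was -0.48, with a range of -1.82 to 0.29, and 1 sum was within 0.25. Of single tested genes, 9.58% did not overlap. The pairs were chosen for the separation of their members, so these counts test nothing. For Rpl29 with Gm13841 the overlap rests on BTBR ASIV replicate 3, at 126 FPM against 45.9 to 63.5 in the other BTBR libraries. Tuba1b enters with each of Gm14150, Gm3226 and Gm17383. Eno1, the glycolytic enolase, fell from 165 (155 to 195) FPKM to 69.4 (66.3 to 74.7), and its copy Eno1b rose from 10.9 (8.46 to 12.02) to 113 (88.3 to 156). Their sum was lower in BTBR, at 597 ± 52.3 against 921 ± 77.5 FPM (SD, n = 6). The further enolase pseudogenes Gm4735, which rose from 6.46 (5.52 to 8.33) FPKM to 95.3 (44.6 to 107), and Gm5855, from 0.115 (0.0416 to 0.214) to 2.02 (1.57 to 2.46), were named after their values were seen. With these the sum of 4 genes was 709 ± 36.3 FPM in BTBR and 929.9 ± 78.5 in C57 (SD, n = 6), without overlap. In 5 of the 18 pairs the lower gene has further near copies that the sum of the pair leaves out. Acp1, a low molecular weight protein tyrosine phosphatase, had the lowest ratio of sums and fell from 13.3 (12.4 to 16.7) to 3.71 (2.74 to 4.23) FPKM, a log2 difference of -1.69 ± 0.07 (limma adjusted p = 1.33e-08). Its copy Gm1866 held 8.47% of the pair's fragments in BTBR. Rbpj, the DNA-binding factor of Notch signalling, fell from 2.43 (2.09 to 2.61) to 1.11 (0.914 to 1.17), and Rbpj-ps3 held 23.9% of that pair's fragments in BTBR.

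Rpl29, a protein of the large ribosomal subunit, had an uneven BTBR group. Its level was 90.9, 87.2 and 103 FPKM in C57 vehicle, 90.9, 79.0 and 95.3 in C57 ASIV, 6.53, 3.48 and 5.99 in BTBR vehicle and 2.70, 2.85 and 77.7 in BTBR ASIV. A single BTBR ASIV library thus lay near C57, just below its lowest library, and the other 5 were far lower. The log2 difference was -3.52 ± 0.64 (limma adjusted p = 0.00362), with adjusted p = 0.00854 under vehicle and 0.127 under ASIV. The pseudogene Gm13841 was at 16.6 to 24.6 FPKM in C57 and 79.8 to 125 in BTBR, and its share of the pair ranged from 30.6 to 95.2% over the BTBR libraries. Other opposite pairs were Mrpl48 with Mrpl48-ps, Ublcp1 with Gm12663, Morf4l1 with Morf4l1-ps1, Lamtor3 with Gm5900, Actb with Lrrc58, mt-Nd3 with Gm28438, and Tuba1b with each of Gm14150, Gm3226 and Gm17383.

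**Figure D2:**
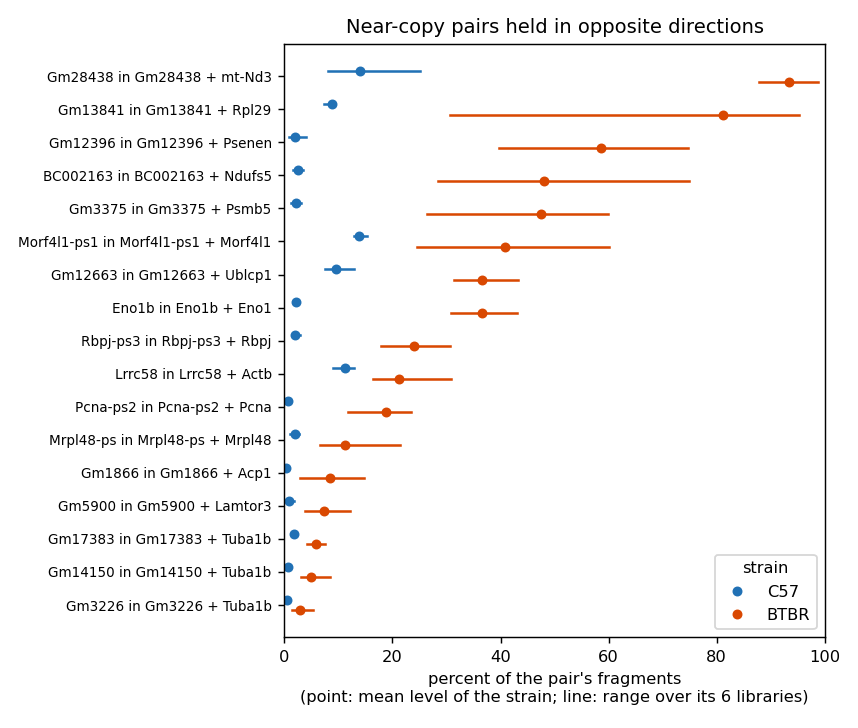
Share of a pair's fragments (x axis, percent) on the member higher in BTBR, for 17 of the 18 pairs of near copies held in opposite directions; points are strain values over 6 libraries and lines the range over libraries. C57 shares run from 0.298 to 14.0% and BTBR shares from 2.84 to 93.4%.

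Other pseudogenes, named after their values were seen, rose without a held fall of the gene they resemble. Gm6969 rose from 2.42 (1.22 to 3.56) FPKM to 88.7 (51.2 to 146), a log2 difference of 4.72 ± 0.26 (limma adjusted p = 2.68e-07). The gene it resembles, Cox7a2l, which takes part in assembling respiratory supercomplexes, was at 105 (98.1 to 119) and 125 (90.1 to 155) and was not called. Gm7993, a copy of Odc1 (ornithine decarboxylase), rose from 0.526 (0.162 to 0.622) to 16.7 (9.65 to 24.7), and Gm5514, a copy of Ldhb (lactate dehydrogenase B), from 1.06 (0.177 to 1.59) to 16.7 (7.63 to 31.6). Neither Odc1 nor Ldhb was called across treatments. Among protein-coding copies, Amd2, the relative of a polyamine enzyme gene, rose from 0.788 (0.695 to 0.981) to 6.91 (3.93 to 9.55), and Eif3j2, of a translation initiation factor, from 1.29 (0.517 to 1.79) to 8.64 (3.27 to 10.5). Hnrnpa3, an RNA-binding protein with 6 near copies, fell from 15.5 (14.1 to 18.0) to 6.33 (3.07 to 7.32), and Atp6v0c, the ring subunit of the vacuolar proton pump, from 43.9 (33.4 to 51.3) to 11.95 (7.84 to 31.0).

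Without near copies, 1137 held genes remained, 573 of them higher and 564 lower, and a difference of at least 1 was seen in 60, of which 44 were protein coding. In 7 protein-coding genes without a near copy the nearest libraries lay at least 2-fold apart: Pttg1, Myo7a, Cort, Myoc, Krt12 and Eps8l1, all lower in BTBR, and Pla2g4e, which was higher.

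Pttg1 (chr11:43420250-43426251) encodes securin, the inhibitor of separase in cell division, and was close to 0 in BTBR. Its level was 9.43, 8.79 and 10.7 FPKM in C57 vehicle, 10.01, 10.1 and 11.8 in C57 ASIV, 0.912, 0.439 and 0.588 in BTBR vehicle and 0.326, 0.221 and 0.324 in BTBR ASIV. The lowest C57 library was 9.64 times the highest BTBR library, and the log2 difference was -2.93 ± 0.11 (limma adjusted p = 2.28e-09), with -2.70 under vehicle and -3.17 under ASIV. Cort (chr4:149125034-149126763), the neuropeptide cortistatin of a class of inhibitory interneurons, was at 12.1, 11.8 and 6.45 FPKM in C57 vehicle, 8.57, 11.8 and 15.9 in C57 ASIV, 1.14, 0.519 and 1.19 in BTBR vehicle and 1.20, 1.63 and 2.08 in BTBR ASIV. No BTBR library reached a C57 library, and the log2 difference of -2.39 ± 0.17 (limma adjusted p = 1.96e-06) was also called under ASIV (adjusted p = 0.000403). Sst, the related peptide somatostatin, was at 318 (272 to 463) in C57 and 586 (277 to 843) in BTBR, and the strains overlapped. Of 16 tested interneuron markers, Tac2 was held higher and Cort and Lamp5 lower, beside 4.84% and 4.59% of all genes. The summed level was 983 to 1222 FPKM in C57, 1695 to 1947 in BTBR vehicle and 845 to 1234 in BTBR ASIV.

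Myoc, a secreted glycoprotein, fell from 6.19 (4.22 to 9.68) FPKM to 0.827 (0.298 to 1.63) and was called under each treatment. Il33, an alarm cytokine, fell from 13.2 (9.02 to 15.6) to 4.60 (1.67 to 7.56), and Lgals1, the lectin galectin-1, from 11.7 (9.37 to 16.6) to 3.54 (1.16 to 7.52). Under ASIV neither Il33 (limma adjusted p = 0.0961) nor Lgals1 (0.0618) passed. Of 6 tested markers of meninges and fibroblasts 0 were held and Col1a2 was called (0.60 ± 0.16). Over all tested genes 9.44% were held and 31.2% called. The summed level of these markers was 241 to 389.8 FPKM in C57 vehicle, 147 to 299 in C57 ASIV, 87.9 to 165 in BTBR vehicle and 319 to 551 in BTBR ASIV. The part of such cells in these differences was not tested.

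Myo7a, an unconventional myosin known from hair cells of the inner ear, fell from 2.58 (1.89 to 3.07) FPKM to 0.367 (0.246 to 0.448), and Eps8l1, a relative of an actin regulator, from 1.58 (0.681 to 2.32) to 0.182 (0.0512 to 0.297). Adding 1 to the FPKM understates changes at such levels: with 0.1 in its place the log2 difference of Myo7a went from -1.39 to -2.57, that of Eps8l1 from -1.12 to -2.62 and that of Krt12 from -1.34 to -2.34. Dusp14, a dual specificity phosphatase, fell from 28.1 (23.8 to 30.9) to 10.3 (3.69 to 23.5), and AC151284.2, annotated as a processed pseudogene, from 7.57 (6.49 to 9.73) to 1.20 (0.583 to 4.22).

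**Figure D3:**
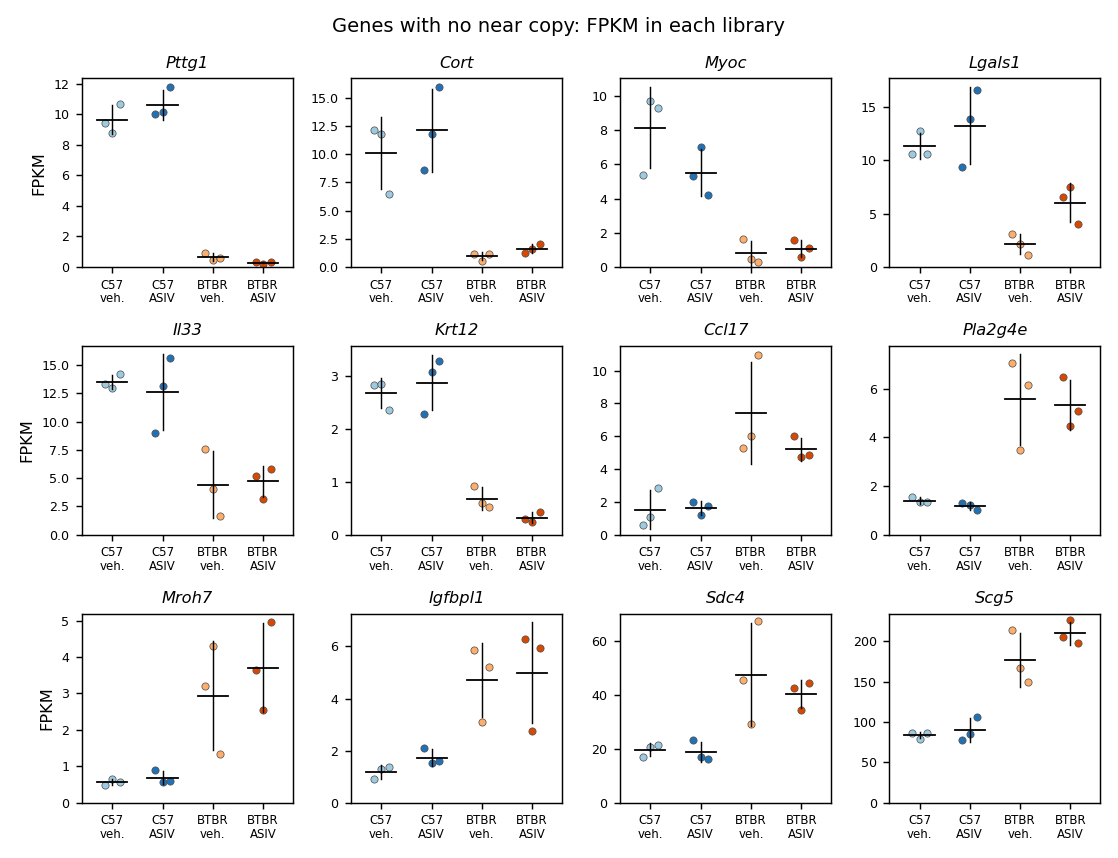
FPKM (y axis) of 12 held genes without a near copy in the 4 groups; points are libraries, lines means and bars the SD of 3 libraries. In every panel the 6 BTBR libraries lie on one side of the 6 C57 libraries; for Pttg1 the highest BTBR library is at 0.912 FPKM and the lowest C57 library at 8.79.

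Pla2g4e, a cytosolic phospholipase, rose from 1.32 (1.01 to 1.56) FPKM to 5.61 (3.48 to 7.06), a log2 difference of 1.47 ± 0.13 (limma adjusted p = 1.5e-05) that was 1.41 under vehicle and 1.53 under ASIV. Ccl17, a chemokine that attracts T cells, was at 0.626, 1.06 and 2.87 FPKM in C57 vehicle, 2.00, 1.20 and 1.74 in C57 ASIV, 5.27, 6.04 and 10.95 in BTBR vehicle and 6.02, 4.73 and 4.84 in BTBR ASIV. All BTBR libraries lay above all C57 libraries, and under ASIV Ccl17 did not pass (limma adjusted p = 0.0587). Scg5, the chaperone 7B2 of a prohormone convertase, rose from 85.1 (78.1 to 106) to 201 (149 to 226), a log2 difference of 1.14 ± 0.10 (limma adjusted p = 2.04e-05).

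Fbxo2, a ubiquitin ligase subunit that binds glycoproteins, rose from 84.6 (67.9 to 99.4) FPKM to 205 (126 to 419). Rgcc, a regulator of cell cycle kinases, rose from 25.9 (20.5 to 31.8) to 64.7 (46.9 to 85.7), and Igfbpl1, a relative of the insulin-like growth factor binding proteins, from 1.44 (0.890 to 2.09) to 5.52 (2.75 to 6.28). Sdc4, a cell surface proteoglycan, rose from 18.8 (16.3 to 23.2) to 43.4 (29.3 to 67.4), and Mroh7 from 0.586 (0.491 to 0.893) to 3.41 (1.33 to 4.96). These 5 genes were called under each treatment by limma, with log2 differences across treatments from 1.11 (Sdc4) to 1.35 (Mroh7). The noncoding Epb41l4aos rose from 10.5 (7.90 to 12.2) to 40.1 (16.1 to 80.7), and the small nucleolar RNA Snord55 from 18.4 (13.5 to 24.03) to 44.7 (31.5 to 104). Apoe, the lipid carrier of glia, was named after its values were seen and rose from 817 (703 to 941) to 1599.8 (1212 to 2517).

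Some held differences had nearly equal estimates under vehicle and ASIV. At least 1 on the log2 scale under each treatment was reached by 61 held genes, 34 of them with a near copy. The most even of these, pseudogenes aside, were Fkbp5 (1.09 and 1.02), Sdc4 (1.15 and 1.07), Pla2g4e, Scg5 (1.05 and 1.22) and Mroh7 (1.24 and 1.45) among the higher. Among the lower they were Ndufs5 (-1.23 and -1.24), Eps8l1 (-1.15 and -1.09), Eno1 (-1.21 and -1.28), Hnrnpa3 (-1.30 and -1.38) and Acp1 (-1.75 and -1.63). All were picked for this evenness, which therefore tests nothing. It is also imprecise: the change between treatments had a standard error of 0.48 for Ndufs5 and 0.38 for Fkbp5.

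Other held genes changed with treatment while staying separated. Syn1, synapsin I of the vesicle surface, was at 251, 233 and 222 FPKM in C57 vehicle, 189, 228 and 231 in C57 ASIV, 72.7, 65.8 and 68.0 in BTBR vehicle and 181, 182 and 154 in BTBR ASIV. The BTBR vehicle libraries were the low ones, and the strain difference was -1.76 under vehicle and -0.32 under ASIV (limma adjusted p of the interaction = 0.000515). Srr, the enzyme that makes D-serine, went from -1.41 under vehicle to -0.22 under ASIV, and Dad1, a subunit of the oligosaccharyltransferase, from -1.50 to -0.18. Dpm3, of the dolichol phosphate mannose synthase complex, went from 1.65 to 0.28, and the splicing factors Hnrnpm and Sart1 from 1.27 to 0.22 and from 1.12 to 0.11. None of these 6 genes was called under ASIV (limma adjusted p 0.133 to 0.522).

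Several glucocorticoid-responsive genes were held higher in BTBR while the receptor was held lower. Of 12 tested members of the list, 4 were held higher and 1 lower, against 4.84% and 4.59% of all genes, and the list's median log2 difference was 0.06, beside 0.0074 over all genes. Tsc22d3, which encodes the anti-inflammatory protein GILZ, rose from 13.9 (11.3 to 14.5) FPKM to 28.2 (22.8 to 42.3), a log2 difference of 1.11 ± 0.13 (limma adjusted p = 0.00023), and was called under each treatment. Fkbp5, a co-chaperone of the receptor, rose from 2.79 (2.60 to 3.29) to 6.46 (4.90 to 12.6), the transcription factor Zbtb16 from 4.51 (3.57 to 5.45) to 8.29 (6.19 to 11.6), and Pdk4, a kinase of pyruvate dehydrogenase, from 3.31 (2.58 to 3.599) to 4.96 (3.77 to 12.2). The receptor gene Nr3c1 fell from 14.7 (14.2 to 15.8) to 11.8 (9.23 to 12.9). Under ASIV limma did not call Fkbp5 (adjusted p = 0.0724), Zbtb16 (0.0634) or Nr3c1 (0.124), and under vehicle it did not call Pdk4 (0.296). Sgk1, a corticosteroid-induced kinase, was called (0.95 ± 0.23, limma adjusted p = 0.0108) and not held, as its lowest BTBR library (13.7) lay below the highest C57 library (15.6). The mineralocorticoid receptor Nr3c2 was called lower (-0.39), and Per1 (0.02), Mt1 (-0.12), Mt2 (-0.26), Cdkn1a (0.10) and Errfi1 (-0.12) were not called. Of 17 clock genes, which also follow the time of sampling, Nr1d2 was held (0.31 ± 0.07).

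Synaptic vesicle release genes were held in the lower direction in 8 of 28 and in the higher direction in 0, with a list median of -0.29. The shares over all tested genes were 4.59% lower and 4.84% higher. Besides Syn1 these were Snap25 and Nsf of the membrane fusion machinery, the vesicle GTPase Rab3a, Napa, Pclo, Syn2 and Unc13a. Snap25 fell from 293 (229.9 to 356) FPKM to 163 (112 to 209), a log2 difference of -0.85 ± 0.14 (limma adjusted p = 0.0013), and Rab3a from 245 (213 to 284) to 158 (118 to 211). Pclo, the active zone protein piccolo, fell from 11.1 (9.43 to 11.97) to 7.05 (5.50 to 8.65), and Nsf from 94.0 (82.2 to 105) to 67.7 (52.1 to 76.3). Under ASIV limma called 0 of the 8. The summed level of the list was 2981 to 3541 FPKM in C57 and 2327 to 2924 in BTBR. Of 10 upper layer neuron markers 3 were held lower, Mef2c and Lamp5 among them, beside 4.59% of all genes. Their sums were 163 to 191 in C57 and 116 to 166 in BTBR. Of 11 deep layer markers 0 were held, beside 9.44% of all genes, with sums of 102 to 142 and 98.8 to 141. The part of neuron composition in the vesicle genes was not tested.

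**Figure D4:**
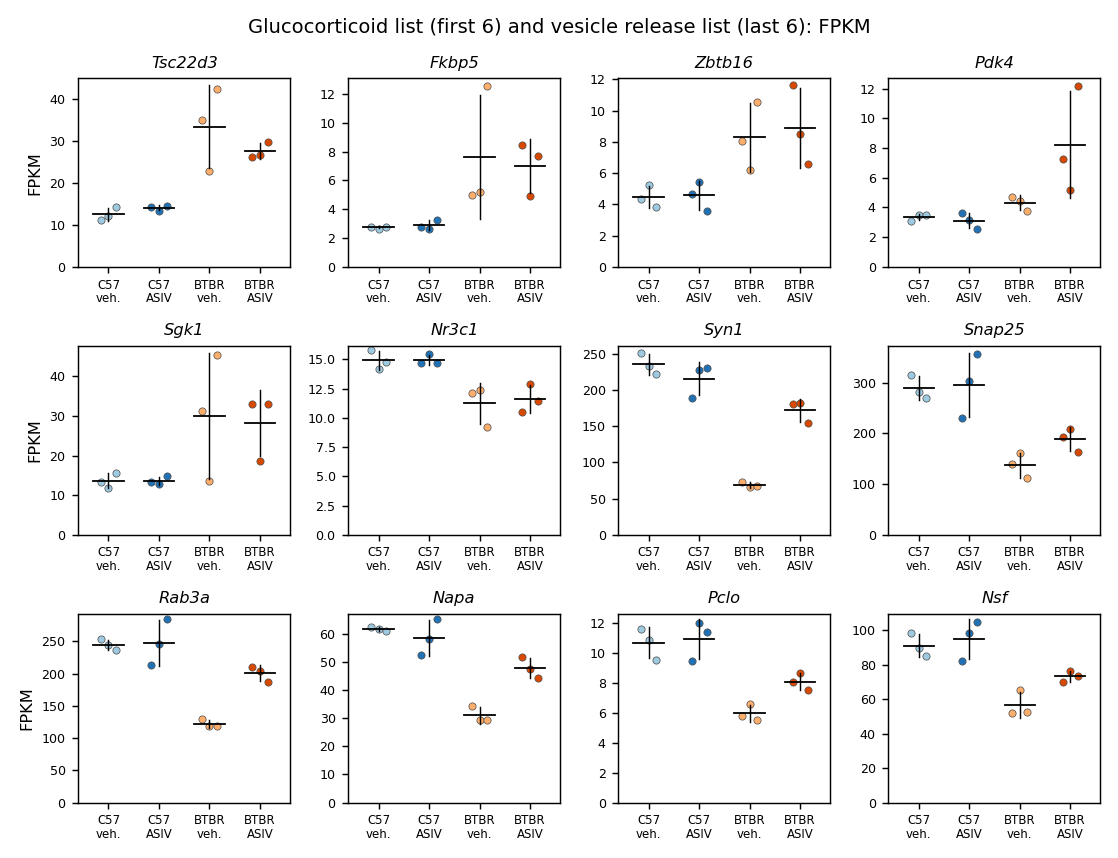
FPKM (y axis) of 6 glucocorticoid list members (Tsc22d3, Fkbp5, Zbtb16, Pdk4, Sgk1, Nr3c1) and 6 held vesicle release genes (Syn1, Snap25, Rab3a, Napa, Pclo, Nsf) in the 4 groups; points are libraries, lines means and bars the SD of 3 libraries. The strains overlap in the Sgk1 panel only, and Syn1 runs 65.8 to 72.7 in BTBR vehicle and 154 to 182 in BTBR ASIV.

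The lists of receptors, channels and adhesion genes are read against the 9.44% of all tested genes that were held. For GABA signalling 2 of 20 were held, both lower; the receptor subunit Gabra5 fell from 21.2 (17.2 to 25.9) FPKM to 10.9 (8.19 to 16.2). Gabra5 overlaps a gene on the opposite strand, and whether counting used strand is not given in the sources used here, so the value of Gabra5 is uncertain. Of 22 glutamate receptor genes, Grin2b, a subunit of NMDA receptors, fell by 0.79 on the log2 scale, the metabotropic receptors Grm3 and Grm7 fell by 0.60 and 0.45, and Grin2d rose by 0.54. Of 28 monoamine and acetylcholine receptors, the serotonin receptor Htr7 rose from 2.29 (1.84 to 2.81) to 3.86 (2.89 to 5.39), and Adra1b (-0.58) and Htr5a (-0.48) fell. Voltage-gated channels had 3 of 30 held, Scn8a (-0.62), Kcnj3 (-0.58) and Kcnq3 (-0.58), all lower. Of 27 genes on the postsynaptic scaffold list 1 was held, in the lower direction, and clustered protocadherins had 5 of 39 held, all lower, with Pcdhga11 at -0.93.

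Of 73 nuclear genes of oxidative phosphorylation, 9 were held higher and 6 lower, beside 4.84% and 4.59% of all genes, with a list median of -0.02. Atp5e, a subunit of ATP synthase, rose from 52.8 (44.3 to 61.9) FPKM to 130.1 (73.7 to 216), and Ndufc2, of complex I, from 72.5 (68.3 to 74.1) to 130.4 (75.6 to 167), while Ndufa12 and Ndufa10, also of complex I, fell by 0.74 and 0.69 on the log2 scale. All 13 mRNAs of the mitochondrial genome were called lower across treatments, each with an interaction, and mt-Nd3 and mt-Co1 were held. mt-Co1 was at 11892 to 13439 FPKM in C57 vehicle, 8557 to 12640.2 in C57 ASIV, 975 to 2133 in BTBR vehicle and 8136 to 8524 in BTBR ASIV, so its BTBR ASIV libraries lay close under the lowest C57 library. The list of cytosolic ribosomal proteins was taken by symbol, Rpl or Rps followed by a number. It can therefore admit other genes with such symbols, and it leaves out Rplp2, which was held. Of its 91 tested genes 16 were held higher and 1, Rpl29, lower, against 4.84% and 4.59% of all genes. Near copies exist for 13 of these 17. They exist for 55 of the 88 protein-coding genes with such symbols, those with -ps left out, so the values of many are uncertain. Rpl37a rose from 87.5 (80.1 to 98.9) to 184 (129 to 264) and Rps20 from 29.2 (26.3 to 33.1) to 56.9 (41.4 to 76.0). Zinc finger genes had 11 higher and 14 lower of 287, shares near the 4.84% and 4.59% of all genes.

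The immune and glial lists are short and are likewise read against the 9.44% of all genes. H2-D1 (0.54 ± 0.12) and H2-Q4 (0.64 ± 0.14), of 16 genes of class I antigen presentation, were held higher; they have near copies, so their values are uncertain. Held genes numbered 0 among 14 interferon response genes and 18 immediate early genes. Of these limma called 2 and 1 across treatments, beside 31.2% of all genes called. Gjb6, an astrocyte gap junction gene, was the held member of 10 astrocyte markers and rose from 18.6 (14.9 to 20.2) FPKM to 36.3 (24.6 to 50.7). Among 14 microglia markers C1qa was higher (0.38) and the purinergic receptor P2ry13 (-0.90) and Gpr34 (-0.65) were lower; C1qa lost its call when any of 3 libraries was left out, C57 vehicle replicate 1 (limma adjusted p = 0.0595), C57 ASIV replicate 2 (0.0602) or BTBR vehicle replicate 3 (0.0606). Gpr17 (0.61) was the held member of 7 markers of oligodendrocyte precursors, and Y-linked Uty (0.39) of 4 sex chromosome markers. Mature oligodendrocytes (12 markers), endothelial and mural cells (13), choroid plexus (2), ependyma (1), blood (4) and striatum (10) had 0 held markers. Summed striatum markers ranged from 89.8 to 315 FPKM in C57 and from 78.0 to 515 in BTBR.

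**Figure D5:**
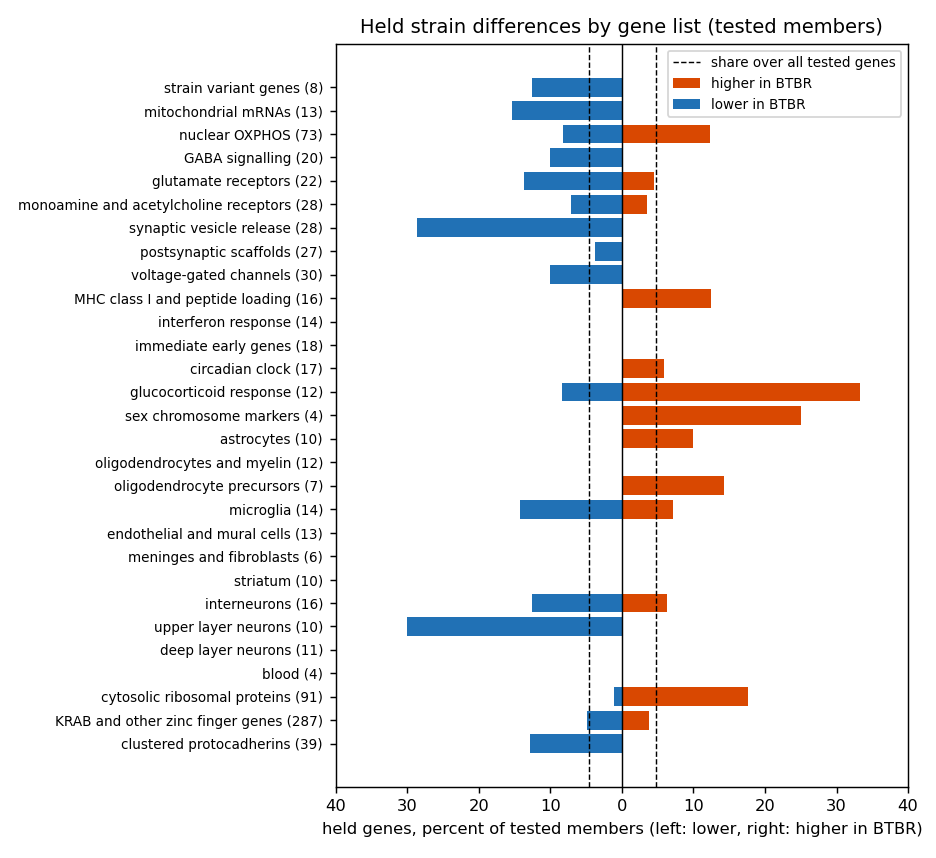
Share of tested members (percent) held higher or lower in BTBR for lists with at least 4 tested members; dashed lines mark the shares over all tested genes, 4.84% and 4.59%. Vesicle release has 8 of 28 members held lower and glucocorticoid response 4 of 12 held higher, and a single gene moves the share of a short list.

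Of 8 tested genes listed as varying between laboratory strains, Pttg1 was held, a share near the 9.44% of all genes; Fgfbp3 (0.56) was called without separation, and Glo1 (0.07), Alad (0.28), Gabra2 (0.04), Ide (-0.15) and Wdfy1 (-0.11) were not called. Fgfbp3 lost its call when any of 6 libraries was left out, namely each C57 vehicle library, BTBR vehicle replicates 1 and 3 or BTBR ASIV replicate 1 (limma adjusted p 0.0525 to 0.0878). Alad, an enzyme of heme synthesis, was called without C57 ASIV replicate 1 (0.36, adjusted p = 0.0423). Itpr3, the calcium channel gene whose tufted allele BTBR carries, was the tested member of the list of BTBR loci and was at 1.02 (0.623 to 1.18) FPKM in C57 and 0.988 (0.684 to 1.04) in BTBR.

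Held genes lay on every autosome, the X and the Y. Their share of tested genes was 14.3% on chromosome 7 (78 higher and 69 lower of 1027) and 6.37 to 10.7% on the other autosomes and the X. Neighbouring tested genes that were all held formed 132 runs of 2, 11 of 3 and 5 of 4. With 9.44% of all tested genes held, some neighbours are both held without any link between them. How many runs that gives was not computed, so the counts do not show clustering. Dusp23, Ackr1, Cadm3 and Fmn2 on chromosome 1, Plcb4, Lamp5, Pak7 and Snap25 on chromosome 2, and Zfp235, Zfp109, Zfp108 and Zfp93 on chromosome 7 were runs of 4 genes all lower in BTBR. Cadm3, a neuronal adhesion gene, fell from 64.8 (54.8 to 69.8) FPKM to 32.1 (22.7 to 44.0), and Ackr1, an atypical chemokine receptor, from 34.1 (31.8 to 41.1) to 23.01 (14.9 to 24.7). The log2 differences of the zinc finger run were -0.32, -0.43, -0.44 and -0.42 in the order of Zfp235, Zfp109, Zfp108 and Zfp93.

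The run on chromosome 11 (chr11:99232761-99425497) lies in a keratin cluster. Krt12, a keratin known from the cornea, fell from 2.85 (2.28 to 3.28) FPKM to 0.486 (0.239 to 0.925), a log2 difference of -1.34 ± 0.11 (limma adjusted p = 5.86e-06). A830036E02Rik, an antisense transcript that overlaps Krt12, fell from 3.99 (2.56 to 4.53) to 0.0496 (0.00895 to 0.220), and reads of these overlapping genes cannot be told apart without strand. Krt222 fell (-0.42) and Krt10, a keratin of the epidermis, rose from 3.13 (1.93 to 3.86) to 6.84 (4.26 to 8.39). On chromosome 14, Slc7a8, a transporter of neutral amino acids, fell from 18.3 (15.9 to 20.3) to 9.50 (6.501 to 12.7), Ppp1r3e (-0.75) and Homez (-0.29) fell, and the survival factor Bcl2l2 rose by 0.19 (limma adjusted p = 0.0336). Bcl2l2 lost its call when any of 8 libraries was left out, that is each C57 vehicle library, C57 ASIV replicates 1 and 2, BTBR vehicle replicates 1 and 3 or BTBR ASIV replicate 3 (adjusted p 0.0549 to 0.0873).

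At the border of the rule, Fancg was held with a lowest BTBR library of 2.8529 FPKM against a highest C57 library of 2.8527. Itgb1bp1 was not held, with a lowest BTBR library of 4.951 against a highest C57 library of 4.952.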

How the data were processed

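RNA-seq of mPFC was deposited by the authors as 1 table of FPKM values per gene and library. Reads were aligned with HISAT2 2.0.5 to mm10, per the submitters' processing notes; the counter, its annotation, strand setting and filters were not given in the sources used here. Of 17283 genes, 17273 matched GENCODE M21 by gene ID, which gave types, positions and exon lengths; 10 did not. Fragments per library (16166512 to 18660125) were recovered from FPKM steps and exon length: 97.6 to 98.0% of values under 50 fragments came out whole within 0.02.

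Genes with an FPKM of at least 1 in 3 libraries were fitted as log2(FPKM + 1) with limma 3.58.1 (R 4.3.3; trended, robust moderation) on strain and treatment (9 residual df), and on 4 group means (8 residual df) for the strain contrast under vehicle, under ASIV and their difference. P-values were adjusted over 13586 genes by the Benjamini-Hochberg method. A log2 fold on this scale understates changes of low genes. Near copies came from megablast (BLAST 2.17.0) of the transcripts. Scripts ran in Python 3.11.15 and were tested on simulated data. Groups came from the labels. Alternatives changed the pseudocount, filter, scaling, moderation, replicate block and libraries used.

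Named genes were the 12 higher and 12 lower held genes with the largest differences, the 5 and 5 most even and the 3 and 3 with the smallest interaction p (without mitochondrial genes and unnamed or pseudogene symbols), up to 4 held members of each list by p, every tested strain variant gene, and the 5 longest runs; a few of these are left out here. Pairs held in opposite directions, and other genes where stated, were named after their values were seen; this holds too for Rab3a, Pdk4, Sgk1 and other list members beyond 4. The members, lists and rules were chosen with earlier results of these data known.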

Additional observations from a re-analysis of the deposited data

Results flagged for a closer look

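For 29 of the named genes the strain difference itself differed between vehicle and ASIV by limma's interaction term (adjusted p under 0.05); values are the ASIV minus the vehicle difference on the log2 scale. Unless stated, positive values belong to genes lower in BTBR and negative values to genes higher in BTBR, and the difference was smaller under ASIV. Among the genes with large or treatment-dependent differences they were Epb41l4aos -1.15, Fbxo2 -0.85, Dpm3 -1.37, Hnrnpm -1.05, Sart1 -1.002, Atp6v0c 1.53, Dusp14 1.39, Syn1 1.44, Srr 1.19 and Dad1 1.33. Among strain variant genes they were Alad -0.78 and Fgfbp3 -0.999. Energy genes had mt-Nd3 2.69, mt-Co1 2.88, Atp5e -1.24, Ndufc2 -0.70 and Ndufa10 0.74, and ribosomal protein genes Rpl37a -0.70 and Rpl11 -0.58. Neuronal genes had Napa 0.69, Pcdhga11 1.01 and Cadm3 0.76, microglial genes P2ry13 1.03 and Gpr34 0.96, and the transporter gene Slc7a8 0.53. Members of copy pairs had Gm14150 1.26, Gm5900 1.09, Gm3226 1.504 and Morf4l1-ps1 -0.56; the first 3 of these are higher in BTBR and their difference grew under ASIV. The BTBR vehicle libraries, which enter every one of these values, are those with 0.342 to 0.640% mitochondrial mRNA, and the part of that in the values was not tested.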

How the results depend on the processing

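Under other pseudocounts, filters, scalings, moderation and models, every count of calls stayed within 1.5 times its reported value: 960 to 1400 for held genes, 3135 to 5306 for strain across treatments, 4295 to 6012 under vehicle, 300.0 to 415 under ASIV and 1681 to 1968 for the interaction. Which genes are held moved more: of 1232 held after rescaling to TPM 925 were among the 1282, and of 1303 held after rescaling without the mitochondrial genome 1116 were. Leaving out each library in turn gave 2684 to 4521 calls across treatments, 4543 to 5925 under vehicle, 99 to 644 under ASIV, 1166 to 2195 for the interaction and 1225 to 2007 held genes (635 to 1023 higher, 590.0 to 984 lower). The cause was not tested, beyond that the separation of 6 from 5 libraries is less strict. Same-numbered libraries correlated at -0.172 to 0.279 in their deviations from group means (18 pairs, 8 over 0.1). Libraries with different numbers correlated at -0.370 to 0.225 (36 pairs, 7 over 0.1). The ranges overlap, and whether the numbers pair samples is not known. With a replicate block the counts were 3885 across treatments, 5808 under vehicle, 415 under ASIV and 1862 for the interaction. That fit held 1257 genes, all of them among the 1282. A fit on recovered fragment counts with voom weights, chosen after seeing the data, gave 4261, 5855, 415, 1968 and 1277. Of 3052 values of 140 named genes, 0 reversed, 20 lost their call (Fgfbp3, C1qa and Bcl2l2 among them) and 2 gained one (Alad). Counting depth, unknown mapping of shared reads and 3 libraries a group limit the precision.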
